A study of Mus musculus with 4 samples.

Results

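The SLC25 family, the mitochondrial solute carriers, was followed here in mouse embryonic cells sorted by mitochondrial membrane potential. Its members were taken by symbol: every gene whose symbol begins with Slc25a, plus Ucp1, Ucp2 and Ucp3, which gave 50 of the 32285 genes in the count tables. The cells came from the aorta-gonad-mesonephros region (AGM), where the first haematopoietic stem cells arise, of C57BL/6J embryos at E11.5 (embryonic day), and carried CD31, the surface protein encoded by Pecam1. They had been stained with TMRM, a fluorescent dye that mitochondria take up more of at a higher membrane potential. The stained cells were sorted into a dim fraction, MMPlow, and a bright fraction, MMPhigh. The aim was to study how mitochondrial activity separates the functions of haematopoietic stem cells. Each fraction was represented by 2 droplet single-cell libraries, and no other genotype, treatment or age was included. Nothing in the labels says whether the libraries of a fraction came from separate embryos or pools, so the p-values below measure only the spread between these libraries.

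SLC25 carriers are small proteins of the mitochondrial inner membrane, made in the cytosol and inserted by the TIM22 translocase. They move nucleotides, phosphate, carboxylates, amino acids and cofactors across a membrane that is otherwise closed to them. The ADP/ATP and phosphate carriers feed the ATP synthase, the uncoupling protein Ucp1 lets protons leak back, and the iron and glycine carriers supply haem synthesis in red cell precursors. Several of these exchanges are driven by the membrane potential that TMRM reports.

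After filters on depth and mitochondrial share, 16698 and 18583 cells were kept in the MMPlow libraries 1 and 2, and 4403 and 3418 in the MMPhigh libraries 1 and 2. The cells of MMPhigh 2 were far deeper, with a median of 23668.5 unique molecular identifiers (UMIs, 1 per captured transcript) per cell against 3145, 3651 and 3685 in the order of the other libraries. Of all retained cells, 854 carried a barcode also found in another library, and the results without them are among the alternatives in the closing section. Clustering gave 29 clusters, of which 22 were named from marker genes in 11 classes. Of the CD31-sorted cells, 7362 and 8327 were endothelial-like in the MMPlow libraries and 13 in each MMPhigh library, so no gate difference is reported in endothelial-like cells. Pecam1 itself was at 463, 472, 520 and 596 CPM (counts-per-million of UMIs) in the endothelial-like cells of the libraries in that order, and at 33.3 CPM or less in the erythroid-like cells. Tests were run in the 9 classes for which each library held 20 cells or more: haematopoietic progenitor-like, erythroid-like, macrophage-like, megakaryocyte-like, germ cell-like, epithelial or mesonephric-like, mesenchymal-like, muscle progenitor-like and neural or neural crest-like. Cells of unnamed clusters made up 17.0% and 19.0% of the MMPlow and 55.8% and 17.9% of the MMPhigh cells.

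Levels are given as CPM, in which the UMIs of the summed cells of a library are scaled to a common total. UMIs count captured transcripts rather than bases read, so CPM were not divided by gene length. Whether gene length affected the counts was not tested. Values in a row are in the order MMPlow 1, MMPlow 2, MMPhigh 1 and MMPhigh 2 unless another order is stated. Fold changes are log2, MMPhigh over MMPlow, from edgeR's quasi-likelihood test with its TMM scaling, and a gene was called at a Benjamini-Hochberg adjusted p under 0.05 over all genes tested. TMM and CPM differ by a common shift: the median log2 ratio of CPM over genes of at least 10 CPM was −0.21 in haematopoietic progenitor-like, −0.18 in macrophage-like, −0.20 in germ cell-like and 0.14 in erythroid-like cells, −0.20 in the unnamed cluster described below, and −0.03 in the sums of all cells.

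The UMIs of the members together took a larger share of all UMIs in MMPhigh. Its 50 members supplied 0.193% and 0.209% of the UMIs of all MMPlow cells and 0.237% and 0.251% of those of all MMPhigh cells, a difference of 0.0432 percentage points. The ranges of the 2 fractions did not overlap, though an exact permutation test of 2 libraries against 2 cannot go below p = 0.333. In sums over all cells, fewer cells of a rich type and less RNA per cell cannot be told apart. Within the 9 classes the share differed most in germ cell-like (0.238%, 0.269%, 0.341% and 0.341%), erythroid-like (0.279%, 0.307%, 0.361% and 0.394%) and haematopoietic progenitor-like cells (0.196%, 0.213%, 0.274% and 0.287%). It was nearly level in mesenchymal-like cells, at 0.183%, 0.193%, 0.193% and 0.195%, where the libraries overlapped. With at least 5000 UMIs and 1500 genes per cell, the difference over all cells was 0.0252 percentage points. The totals of erythroid-like cells also held embryonic globins, with Hbb-y alone at 61000, 55100, 25500 and 2530 CPM. Their part in the share of that class was not tested.

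**Figure D1:**
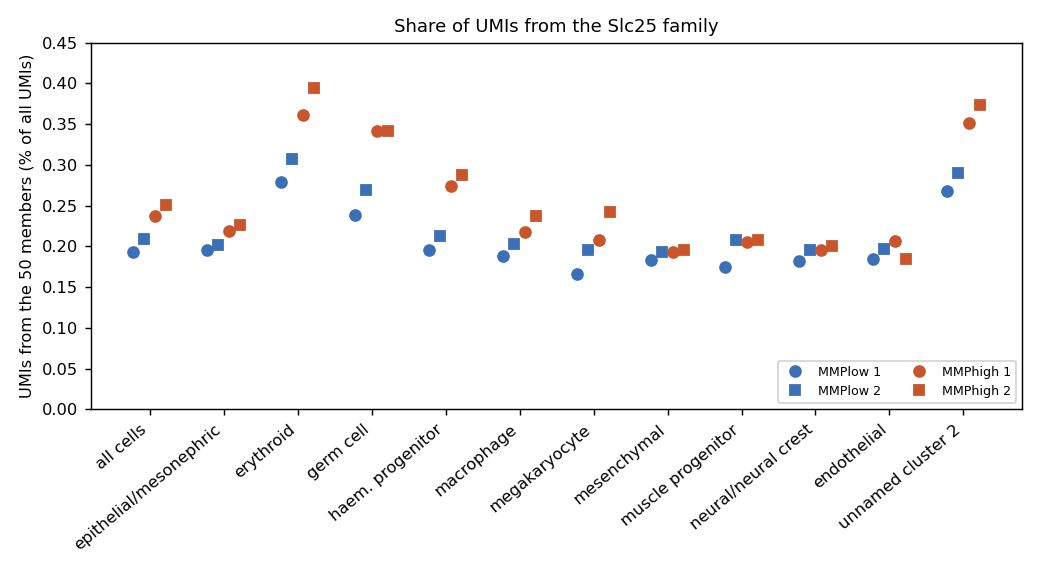
Share of UMIs from the 50 members (% of all UMIs of the summed cells, y axis) in all retained cells and in each class (x axis), with 1 point per library, blue for MMPlow and orange for MMPhigh. In all cells the MMPhigh libraries sit at 0.237% and 0.251%, above 0.193% and 0.209%, and among the named classes the gap is widest in the germ cell-like, erythroid-like and haematopoietic progenitor-like cells.

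A few members carried most of these UMIs. Slc25a3, Slc25a4 and Slc25a5 together gave 56.0%, 59.6%, 61.5% and 60.8% of the family's UMIs. Over all cells their mean CPM went from 426, 362 and 375 in MMPlow to 526, 473 and 494 in MMPhigh. Most of the difference in the family's share lay in these genes. The same held in haematopoietic progenitor-like cells, where their means went from 466, 301 and 420.5 to 712, 431 and 769 CPM. All 50 members had a UMI in every library, and 7 had under 100 UMIs in all. Of the 50, 46 passed the filter on low counts in the sums of all cells; Ucp1, Ucp3, Slc25a41 and Slc25a48 did not. Ucp1, the proton leak of brown fat, had 2, 3, 4 and 14 UMIs, and Ucp3, its muscle relative, 5, 11, 4 and 19.

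Over all retained cells, 18 of the 46 tested members were higher in MMPhigh and 9 were lower. The background was high: 27.2% of all 20517 tested genes were called higher and 26.5% lower, 53.7% in all, against 58.7% of the tested members. The median fold change was 0.23 over the members and 0.01 over all genes. Without MMPlow 1 or MMPlow 2, 13 and 15 members were called. The classes differ greatly in number between the fractions, so a second comparison summed the same number of cells of each of the 9 classes from every library. There, 4 of 43 tested members were higher and 2 lower, or 14.0%, against 9.34% of all genes called higher, 10.7% lower and 20% in either direction. The members' median was 0.14 and that of all genes 0.0009. Ucp2, Slc25a16, Slc25a11 and Slc25a5 were the members higher in these equal-class sums, and Slc25a37 and Slc25a24 those lower. The count was 2 without MMPlow 1 and 3 without MMPlow 2 or MMPhigh 2. Ucp2 was called in each of 20 alternatives. Those 20 leave out the settings chosen after the clusters were seen, which changed the macrophage-like cells or added an unnamed cluster.

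**Figure D2:**
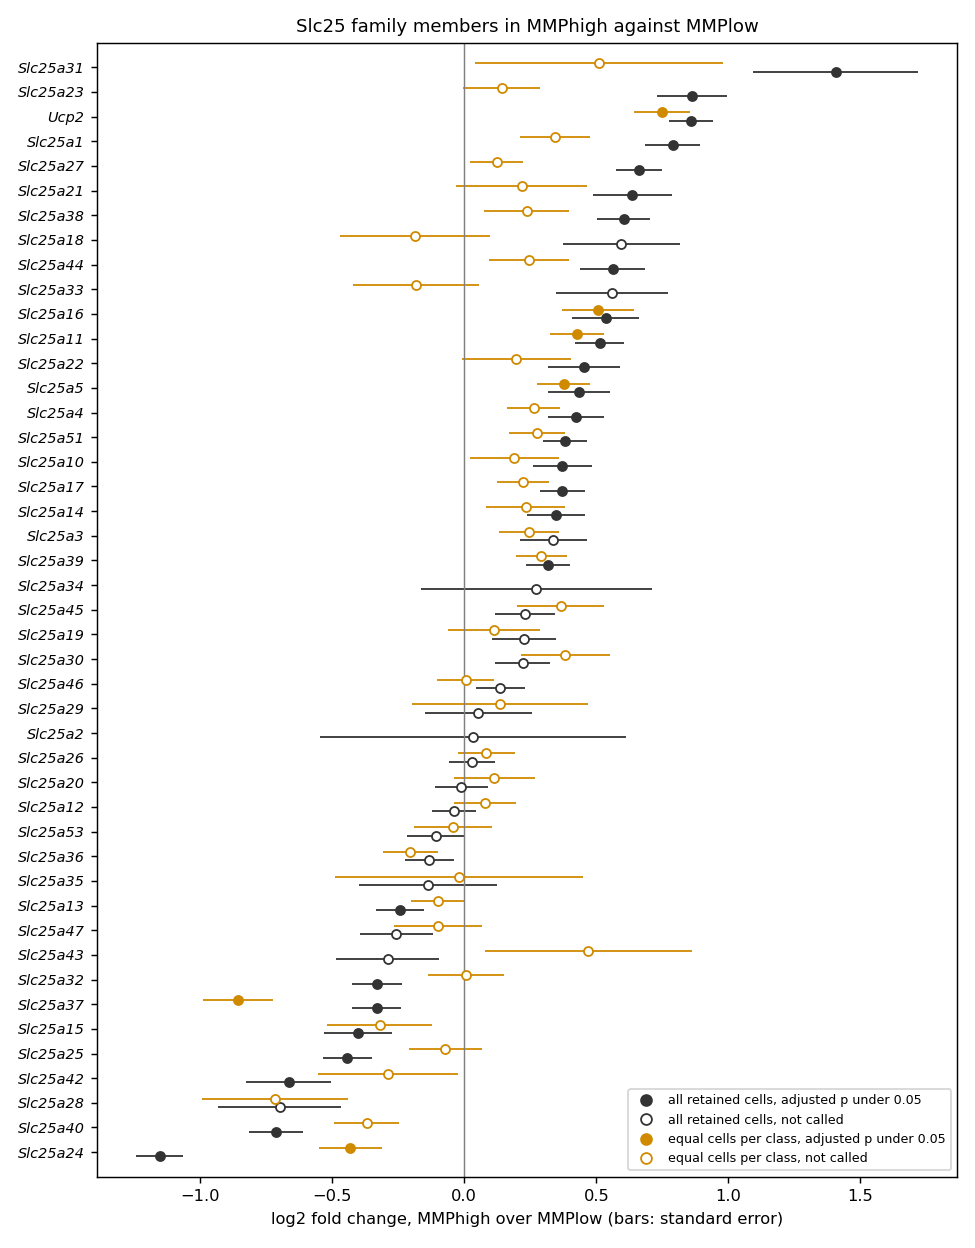
Log2 fold change of MMPhigh over MMPlow (x axis, bars are standard errors) for each member tested (y axis), in sums of all retained cells (dark) and in sums with equal cells per class (orange), filled where the adjusted p was under 0.05. Slc25a54, at −2.68 on few UMIs, is left out. Ucp2 is to the right and Slc25a24 to the left of 0 in both sums, while Slc25a23 and Slc25a27 are near 0 once the classes are equal.

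For the members these comparisons turn on, the 250 bases before the transcription start are shown, on the gene's strand and in the GRCm38.p6 build, from RefSeq. Capitals mark matches, on either strand, to 6 motifs: the GATA motif AGATAA, the ETS motif CGGAAG, the GC box GGGCGG, the NRF1 core site TGCGCA, the CCAAT box CCAAT and the E-box CACGTG.
Slc25a5, chrX:36795347-36795596, plus strand: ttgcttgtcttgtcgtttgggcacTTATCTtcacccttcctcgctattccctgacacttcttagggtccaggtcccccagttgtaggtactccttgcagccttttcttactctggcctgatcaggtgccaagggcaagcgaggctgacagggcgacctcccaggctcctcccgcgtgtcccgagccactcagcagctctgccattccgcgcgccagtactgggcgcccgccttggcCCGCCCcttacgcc
Ucp2, chr7:100493108-100493336, plus strand: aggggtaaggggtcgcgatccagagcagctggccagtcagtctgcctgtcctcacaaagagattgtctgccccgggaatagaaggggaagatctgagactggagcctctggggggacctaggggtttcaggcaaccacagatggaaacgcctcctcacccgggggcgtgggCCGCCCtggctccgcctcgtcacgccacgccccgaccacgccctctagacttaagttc
Slc25a24, chr3:109122899-109123148, plus strand: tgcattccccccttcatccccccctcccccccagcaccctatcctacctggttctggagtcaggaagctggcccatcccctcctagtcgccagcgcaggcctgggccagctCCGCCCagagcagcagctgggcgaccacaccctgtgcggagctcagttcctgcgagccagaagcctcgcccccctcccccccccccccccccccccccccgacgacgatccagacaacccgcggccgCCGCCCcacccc
Slc25a21, chr12:57197473-57197722, minus strand: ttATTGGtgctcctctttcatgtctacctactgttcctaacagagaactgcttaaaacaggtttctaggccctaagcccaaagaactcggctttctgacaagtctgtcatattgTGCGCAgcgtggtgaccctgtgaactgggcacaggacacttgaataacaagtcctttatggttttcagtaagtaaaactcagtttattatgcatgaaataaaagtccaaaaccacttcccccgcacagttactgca
The window of Slc25a5 holds 1 GATA motif and 1 GC box, that of Ucp2 1 GC box, that of Slc25a24 2 GC boxes, and that of Slc25a21 1 CCAAT box and 1 NRF1 core site. RefSeq lists 2 starts for Slc25a21, and the Ucp2 window is 229 bases because the rest lies inside the annotated gene. Windows were found for 39 of the 50 members. A GC box is in 25 of them and in 33.0% of all 27025 windows, an ETS motif in 10 against 13.8%, a CCAAT box in 16 against 34.5%, an E-box in 6 against 6.04%, an NRF1 core site in 5 against 6.67%, and a GATA motif in 2 against 10.2%. Each motif was counted on its own, so matches of different motifs may overlap. The median share of G and C was 58.8% in the members' windows and 52.0% in all.

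The 3 ADP/ATP carriers, which exchange matrix ATP for cytosolic ADP, were all called higher over all cells, where 27.2% of all genes were. Slc25a5 (chrX:36795651-36798807, plus strand), the form of dividing cells, stood at 347, 404, 483 and 506 CPM, a fold change of 0.43 ± 0.12 (SE, adjusted p = 0.0143). Slc25a4 (chr8:46206797-46211284, minus strand), the form of heart and muscle, stood at 348, 376, 471 and 476 CPM (0.42 ± 0.11, adjusted p = 0.0100). Both MMPhigh libraries were above both MMPlow libraries for each gene. Slc25a5 was not called without MMPlow 1, and Slc25a4 not without either MMPlow library. Slc25a3 (chr10:91116574-91124059, minus strand), which imports the phosphate for ATP synthesis, was at 386, 466, 506 and 546 CPM and was not called (0.34 ± 0.13, adjusted p = 0.0522). In the equal-class sums Slc25a5 was called at 307, 347, 393 and 429 CPM (0.38 ± 0.10, adjusted p = 0.0345), but not when MMPlow 1, MMPlow 2 or MMPhigh 2 was left out.

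Slc25a5 was called higher in 5 of the 9 classes, 4 of them blood cells and the fifth the germ cell-like cells. In haematopoietic progenitor-like cells its level was 394, 447, 766 and 773 CPM (1.13 ± 0.15, adjusted p = 5.69e-06). In erythroid-like cells it was 378, 416, 739 and 799 CPM (0.82 ± 0.18, adjusted p = 0.00316), and in germ cell-like cells 337, 270, 549 and 501 CPM (0.94 ± 0.24, adjusted p = 0.0139). Macrophage-like cells had 344, 414, 523 and 592 CPM (0.82 ± 0.14, adjusted p = 0.00229) and megakaryocyte-like cells 349.5, 448.5, 567 and 714 CPM (0.82 ± 0.20, adjusted p = 0.0230). In each of these 5 classes both MMPhigh libraries were above both MMPlow libraries. The fold change was −0.23 in epithelial or mesonephric-like, −0.15 in mesenchymal-like, −0.02 in neural or neural crest-like and −0.01 in muscle progenitor-like cells, none of them called. A test of whether the gate difference of Slc25a5 depends on the class gave an adjusted p of 1.08e-10. Without MMPlow 1, Slc25a5 was not called in erythroid-like, germ cell-like or megakaryocyte-like cells; without MMPlow 2 it was not called in erythroid-like or germ cell-like cells, and without MMPhigh 2 not in megakaryocyte-like cells. Among macrophage-like cells with at least 5000 UMIs and 1500 genes it was at 416.5, 489, 530.2 and 593 CPM and not called (0.43 ± 0.14, adjusted p = 0.0540). The megakaryocyte call was lost under the same selection (0.39) and the germ cell call with cells thinned to 2000 UMIs.

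Depth and mitochondrial share also varied between the libraries of these classes, and their part was not tested. In erythroid-like and germ cell-like cells MMPhigh 2 was the deepest library, while MMPhigh 1 was below or within the range of MMPlow. Median UMIs per cell were 8465.5, 10045, 6083 and 64384 in erythroid-like and 3121, 3952, 3934 and 48836.5 in germ cell-like cells. Median mitochondrial shares were 1.64%, 1.65%, 1.98% and 3.55% in erythroid-like and 8.02%, 8.87%, 2.97% and 3.91% in germ cell-like cells. In macrophage-like cells both MMPhigh libraries were deeper than both MMPlow libraries, with median UMIs of 2993, 3316, 14914 and 23404 and median mitochondrial shares of 5.82%, 6.47%, 4.62% and 4.61%; the same order of depth in haematopoietic progenitor-like cells is given with their values below. Megakaryocyte-like cells had median UMIs of 2929.5, 3740, 3536.5 and 30996 and median mitochondrial shares of 6.24%, 5.92%, 2.82% and 3.64%. Both MMPhigh libraries were also deeper in 2 further classes with calls given below. Median UMIs were 3702, 3990, 14583 and 21768 in mesenchymal-like and 3766, 4574, 7323 and 20357 in neural or neural crest-like cells.

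Slc25a4 was most abundant in germ cell-like cells, at 556, 713, 1182 and 1156 CPM, where it was higher in MMPhigh by 1.02 ± 0.22 (adjusted p = 0.00467, not called without MMPlow 1). It was also called in haematopoietic progenitor-like cells (294, 308, 420 and 442 CPM, 0.78 ± 0.14, adjusted p = 0.000268) and mesenchymal-like cells (409, 472, 554.5 and 554 CPM, 0.39 ± 0.12, adjusted p = 0.0360). The mesenchymal call was lost without either MMPlow library and with at least 5000 UMIs and 1500 genes per cell, and the germ cell call with cells thinned to 2000 UMIs. In macrophage-like cells Slc25a4 was at 277, 277, 272 and 293 CPM, where the fractions overlapped, and was not called. Slc25a31, the ADP/ATP carrier of the male germ line, was called over all cells (1.41 ± 0.31, adjusted p = 0.00566) at 0.269, 0.296, 0.826 and 0.671 CPM. Its level was highest in germ cell-like cells, at 9.12, 30.02, 17.9 and 16.9 CPM on 1, 4, 13 and 42 UMIs, which was too few for a test there. Germ cell-like cells numbered 30 and 30 in MMPlow and 75 and 48 in MMPhigh, or 0.18%, 0.161%, 1.7% and 1.4% of the retained cells. In the equal-class sums Slc25a31 was not called (0.51 ± 0.47, adjusted p = 0.482). The part of germ cell-like cells in the call over all cells was not tested.

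Ucp2 (chr7:100493337-100502020, plus strand), an inner membrane carrier of immune and many other cells, had 1 of the 2 lowest adjusted p-values of the family over all cells. Its level was 53.9, 49.9, 88.4 and 95.1 CPM, both MMPhigh libraries far above both MMPlow libraries (0.86 ± 0.08, adjusted p = 5.99e-05). It kept its call in the equal-class sums, at 60.3, 50.4, 91.9 and 87.9 CPM (0.75 ± 0.11, adjusted p = 0.00318). In macrophage-like cells Ucp2 stood at 99.2, 106, 213 and 240 CPM (1.40 ± 0.11, adjusted p = 0.000113). In haematopoietic progenitor-like cells it stood at 68.9, 71.3, 122 and 129 CPM (1.10 ± 0.16, adjusted p = 2.1e-05). Erythroid-like cells held Ucp2 at 162, 159, 165 and 176 CPM and it was not called there (−0.05 ± 0.19, adjusted p = 0.945). In mesenchymal-like cells Ucp2 was lower in MMPhigh, at 37.4, 26.8, 22.3 and 19.9 CPM (−0.55 ± 0.17, adjusted p = 0.0483). That call held in 8 of 18 alternatives, and was lost without MMPlow 1 or MMPhigh 2 and with DESeq2.

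The macrophage-like cells of the fractions came from different clusters. Of the 4 macrophage-like clusters, the one led by F13a1 and Hdac9 held 1049 and 1139 of the MMPlow and 14 and 6 of the MMPhigh cells. The cluster led by C1qc and C1qb held 335, 518, 290 and 509 cells, and the one led by Ctss and Mpeg1 held 19, 40, 169 and 334. The last, led by Mrc1 and F13a1, held 330, 85, 0 and 0. The 12 macrophage markers together gave 3870, 4920, 8370 and 8700 CPM in the whole class, and their part in its calls was not tested. Within the C1qc cluster alone, Ucp2 was at 156, 157, 178 and 198 CPM and was not called (0.27 ± 0.11, adjusted p = 0.101). There, 1 of 38 tested members was called, Slc25a24, where 15.3% of all genes were, while 11 of 40 were called in the whole class. This alternative was chosen after the clusters were seen.

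Of the 6 uncoupling proteins and relatives, 4 were tested over all cells and 3 were higher, where 27.2% of all genes were. Slc25a27 (UCP4), a carrier of neurons, was called higher over all cells at 18.9, 18.6, 27.6 and 30.2 CPM (0.66 ± 0.09, adjusted p = 0.000351). In the equal-class sums it was not called, at 31.5, 30.6, 32.4 and 33.0 CPM. Neural or neural crest-like cells held its highest level and a smaller difference, at 52.6, 54.7, 71.0 and 69.7 CPM (0.45 ± 0.11, adjusted p = 0.0143, not called without MMPlow 1 or MMPhigh 2, nor with DESeq2). These cells were 3.32% and 3.05% of the MMPlow and 15.8% and 31.7% of the MMPhigh cells.

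The 4 carriers of di- and tricarboxylates were all called higher over all cells, where 27.2% of all genes were, with a median fold change of 0.57. Slc25a1, the citrate carrier that supplies acetyl units for lipid synthesis, stood at 22.0, 21.1, 32.7 and 39.9 CPM (0.79 ± 0.10, adjusted p = 0.000339). Slc25a11, the oxoglutarate-malate exchanger of the malate-aspartate shuttle, stood at 44.5, 50.4, 65.2 and 66.9 CPM (0.51 ± 0.09, adjusted p = 0.00210). Slc25a10, the dicarboxylate carrier, was at 8.47, 8.11, 10.6 and 10.4 CPM (0.37 ± 0.11, adjusted p = 0.0226), a call lost without MMPlow 1, MMPlow 2 or MMPhigh 1. In the equal-class sums Slc25a11 of the 4 was called, at 46.2, 53.5, 62.7 and 67.0 CPM (0.43 ± 0.10, adjusted p = 0.0235, not called without MMPlow 1 or MMPhigh 2). It was also called in haematopoietic progenitor-like cells (45.6, 60.2, 93.7 and 84.6 CPM, 0.96 ± 0.19) and macrophage-like cells (48.1, 57.7, 68.3 and 75.7 CPM, 0.71 ± 0.12). The macrophage call was lost with at least 5000 UMIs and 1500 genes per cell (0.28 ± 0.12, adjusted p = 0.139). In the C1qc cluster Slc25a11 was at 66.05, 68.9, 65.5 and 74.2 CPM, where the fractions overlapped (0.06 ± 0.12, adjusted p = 0.804).

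Slc25a21 (chr12:56712634-57197472, minus strand, a gene of 485 kb), the oxodicarboxylate carrier, was called higher over all cells at 78.4, 73.0, 95.1 and 134 CPM (0.64 ± 0.15, adjusted p = 0.00995, not without either MMPlow library). Erythroid-like cells held 646, 735, 778 and 977 CPM (0.21 ± 0.18, not called), at least 2 times the level of every other named class in each library. An unnamed cluster led by Slc25a21, Ermap and Ank1 held 660, 538, 530 and 546 CPM, and was not called either way. Epithelial or mesonephric-like cells were next, at 34.7, 40.5, 57.6 and 236 CPM, with MMPhigh 2 far above the rest, and were not called (2.04 ± 0.70, adjusted p = 0.221). In 3 other classes it was called lower in MMPhigh. Megakaryocyte-like cells had 25.03, 18.3, 0.782 and 1.58 CPM (−3.82 ± 0.45), on 1 and 5 UMIs in MMPhigh, and the call was lost with cells thinned to 2000 UMIs (−2.03). Haematopoietic progenitor-like cells had 16, 17, 0 and 0 UMIs, or at least 6.99-fold less in MMPhigh when its 0 counts are set to 3 UMIs over both libraries (not called without MMPhigh 2). In both of these classes Slc25a21 passed the filter on low counts through MMPlow alone, so it had to differ and no p is given. Macrophage-like cells had 17.8, 10.2, 1.08 and 4.86 CPM (−1.74 ± 0.54, adjusted p = 0.0451). That call held in 10 of 18 alternatives, and was lost without either MMPlow library and with DESeq2. In the C1qc cluster the fractions overlapped, at 17.4, 5.28, 1.65 and 6.76 CPM (−0.97 ± 0.91, adjusted p = 0.591).

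Slc25a21 transcripts were also found in endothelial-like cells, at 4.33 and 3.64 CPM in MMPlow. When every cell was thinned to 2000 UMIs, 1.33% and 1.06% of the MMPlow haematopoietic progenitor-like cells had a Slc25a21 UMI, against 0.774% and 0.721% of endothelial-like cells, whose median depth before thinning was 3129 and 3597 UMIs. The markers of other classes differed too. The 12 erythroid markers together gave 159, 178, 13 and 16.7 CPM in haematopoietic progenitor-like cells, 421, 481, 256 and 558 CPM in megakaryocyte-like cells and 207, 137, 58.3 and 31.7 CPM in macrophage-like cells. In the haematopoietic progenitor-like cells of MMPhigh, 5 and 1 of the 12 were at 0, and in those of MMPlow none was. The 12 endothelial markers together gave 353 to 1570 CPM in the other tested classes of MMPlow and 22.1 to 395 CPM in those of MMPhigh. The part of such transcripts in the Slc25a21 difference was not tested.

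Slc25a12 and Slc25a13, which export aspartate for the malate-aspartate shuttle, were not higher over all cells. Slc25a12 stood at 34.0, 34.8, 32.9 and 32.4 CPM and was not called, and Slc25a13 was called slightly lower, at 68.6, 68.4, 52.2 and 60.6 CPM (−0.24 ± 0.09, adjusted p = 0.0492). That call was lost without MMPlow 1, MMPlow 2 or MMPhigh 1 and held in 5 of 16 alternatives. Slc25a13 was highest in germ cell-like cells (201, 173, 176 and 218 CPM), where the fractions overlapped. Slc25a12 was highest in granulocyte or mast-like cells (122, 136, 133 and 142 CPM), which were too few in MMPhigh for a test. In neural or neural crest-like cells Slc25a12 was called higher (23.2, 22.4, 33.5 and 28.8 CPM, 0.50 ± 0.15, adjusted p = 0.0363), but not without MMPlow 1, MMPlow 2 or MMPhigh 1, nor with DESeq2. Slc25a22, a glutamate carrier, was called over all cells at 4.88, 4.59, 6.15 and 6.48 CPM (0.45 ± 0.14, adjusted p = 0.0224, not without MMPlow 1, MMPlow 2 or MMPhigh 2). Slc25a20, which brings acylcarnitines in for fatty acid oxidation, stood at 12.5, 12.5, 11.95 and 12.3 CPM and was not called.

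Among the 8 carriers of carnitine, ornithine and amino acids, 7 were tested over all cells and 1 was called in each direction. Of all genes, 53.7% were called there. Slc25a44, a carrier of branched-chain amino acids, was higher (9.74, 7.98, 12.5 and 12.95 CPM, 0.56 ± 0.12, adjusted p = 0.00528, not called without MMPlow 2). Slc25a15, the ornithine carrier of the urea cycle, was lower (7.47, 7.63, 5.39 and 5.73 CPM, −0.40 ± 0.13, adjusted p = 0.0285, not called without MMPlow 1, MMPlow 2 or MMPhigh 1). Slc25a45 was not called over all cells. It was higher in MMPhigh in macrophage-like cells (25.9, 28.5, 36.0 and 39.4 CPM, 0.73 ± 0.12, adjusted p = 0.00217) and in haematopoietic progenitor-like cells (16.9, 17.2, 27.3 and 29.6 CPM, 1.00 ± 0.28, adjusted p = 0.00822, not called without MMPhigh 2). The progenitor call was also lost with DESeq2, with at least 5000 UMIs and 1500 genes per cell and with cells thinned to 2000 UMIs. Slc25a45 was lower in mesenchymal-like cells (4.26, 2.65, 0.608 and 0.513 CPM, −2.56 ± 0.51) and in neural or neural crest-like cells (4.32, 4.94, 0.731 and 1.16 CPM, −2.13 ± 0.48). In both it passed the filter through MMPlow alone, so no p is given. The mesenchymal call was lost without MMPlow 1 and the neural call without MMPlow 2. The 12 macrophage markers together gave 293, 233, 192 and 72.1 CPM in mesenchymal-like and 214, 154, 158 and 126 CPM in neural or neural crest-like cells. Slc25a45 was at 7.02 and 7.44 CPM in the endothelial-like cells of MMPlow. The part of transcripts from other cells was not tested.

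The carriers of ATP-Mg/phosphate and coenzyme A went both ways: of 6 tested over all cells, 2 were higher and 4 lower. Of all genes, 27.2% were higher and 26.5% lower. The 4 lower members include Slc25a54, which passed the filter on low counts through MMPlow alone. Slc25a24 (chr3:109123149-109168457, plus strand), a calcium-regulated ATP-Mg/phosphate carrier, stood at 35.1, 37.0, 15.4 and 16.2 CPM (−1.15 ± 0.09, adjusted p = 1.4e-05), with both MMPhigh libraries below both MMPlow libraries. In the 9 classes it was called lower in macrophage-like cells (21.9, 22.9, 9.56 and 12.1 CPM, −0.76 ± 0.17, adjusted p = 0.00835, not without MMPhigh 1). It was also called lower in neural or neural crest-like cells (29.1, 19.1, 13.8 and 15.1 CPM, −0.65 ± 0.20, adjusted p = 0.0371, not without MMPlow 1 or MMPhigh 1, nor with DESeq2). It was at 14.6, 21.1, 6.50 and 8.12 CPM in haematopoietic progenitor-like cells and 53.8, 62.5, 34.4 and 42.0 CPM in megakaryocyte-like cells. In epithelial or mesonephric-like cells it was at 44.7, 28.8, 5.49 and 25.4 CPM, on 2 and 16 UMIs in MMPhigh. In each of these classes both MMPhigh libraries were below both MMPlow libraries, and it was not called. Muscle progenitor-like cells had 35.3, 38.5, 46.95 and 35.95 CPM. In endothelial-like cells Slc25a24 was at 40.2, 44.9, 43.7 and 42.4 CPM, on 9 and 14 UMIs in MMPhigh, and in mesenchymal-like cells at 37.6, 37.1, 34.5 and 32.3 CPM. The equal-class sums, which hold no endothelial-like cells, gave 27.6, 25.5, 18.0 and 19.95 CPM (−0.43 ± 0.12, adjusted p = 0.0395), and leaving out any of the 4 libraries lost that call.

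The relatives of Slc25a24 followed no common direction. Slc25a25, another ATP-Mg/phosphate carrier, was lower over all cells (27.6, 25.6, 17.9 and 20.2 CPM, −0.44 ± 0.09, adjusted p = 0.00451) and not called in the equal-class sums (24.6, 19.6, 19.7 and 20.8 CPM). Slc25a42, a coenzyme A carrier, was lower at 4.95, 4.59, 3.09 and 2.82 CPM (−0.66 ± 0.16, adjusted p = 0.00862, not called without MMPlow 1). Slc25a54 had 9, 13, 1 and 2 UMIs, a ratio of MMPlow to MMPhigh of 7.02 with a 95% exact binomial interval of 2.11 to 36.6 that covers counting error only. It passed the filter on low counts through MMPlow alone, so no p is given, and DESeq2 did not call it. Slc25a23, which also carries ATP-Mg, was higher over all cells (6.74, 6.23, 10.4 and 12.6 CPM, 0.86 ± 0.13, adjusted p = 0.000755) and not called in the equal-class sums (11.3, 12.02, 11.9 and 13 CPM). Within classes it was called in epithelial or mesonephric-like cells, on 6, 14, 19 and 24 UMIs (6.71, 12.6, 52.1 and 38.0 CPM, 2.14 ± 0.43), but not without either MMPlow library. It passed the filter there through MMPhigh alone, so no p is given. Slc25a16, grouped here with the coenzyme A carriers, was higher over all cells (10.95, 13.5, 17.8 and 16.8 CPM, 0.54 ± 0.13, adjusted p = 0.00760, not without MMPlow 1) and in the equal-class sums (11.98, 12.6, 17.7 and 16.2 CPM, 0.51 ± 0.14, adjusted p = 0.0352). The second call was lost without MMPlow 1, MMPlow 2 or MMPhigh 1. Its fold change was above 0 in all 8 classes where it was tested and called in 1, the neural or neural crest-like cells (0.71 ± 0.19, adjusted p = 0.0220, not without MMPlow 1 or MMPhigh 1, nor with DESeq2).

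Slc25a37 (chr14:69241848-69285112, minus strand), mitoferrin 1, which brings in iron for haem, and Slc25a38, which brings in glycine for it, were both highest in erythroid-like cells in every library. Slc25a37 there was at 313, 330, 105 and 103 CPM, far lower in both MMPhigh libraries (−1.77 ± 0.18, adjusted p = 3.24e-09). Slc25a38 in the same cells was not called, at 49.1, 44.8, 48.4 and 60.8 CPM. These erythroid-like cells, 60, 65, 37 and 53 in number, also differed in their erythroid markers. The 12 markers together gave 117000, 108000, 45700 and 6810 CPM. Embryonic globins led that sum, with Hbb-y at 61000, 55100, 25500 and 2530 CPM and Hba-x at 42900, 38800, 14900 and 1900 CPM. Gata1 stood at 125, 130, 118 and 141 CPM. Alas2, the first enzyme of haem synthesis in red cells, was at 147, 162, 45.3 and 24.8 CPM, and Klf1, an early erythroid regulator, at 127, 153, 205 and 226 CPM. The part of these differences in the Slc25a37 result was not tested. The call depends on how the erythroid cells were grouped: with clusters drawn at a coarser resolution of 0.5 the fold change was 0.04, and at 2 it was −0.36, neither called. In the unnamed cluster led by Slc25a21, Slc25a37 stood at 36.5, 30.5, 41.0 and 32.3 CPM (0.42 ± 0.15, adjusted p = 0.0478). The fractions overlapped there, and the log2 ratio of mean CPM was 0.13.

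Outside the red cell line Slc25a37 was lower in MMPhigh in neural or neural crest-like cells (16.5, 11.53, 7.83 and 7.14 CPM, −0.85 ± 0.25, adjusted p = 0.0277, not without MMPlow 1 or MMPhigh 2, nor with DESeq2). It was also lower in macrophage-like cells (21.9, 23.7, 13.9 and 14.4 CPM, −0.43 ± 0.15, adjusted p = 0.0499). That call held in 8 of 18 alternatives, and was lost without MMPlow 2, MMPhigh 1 or MMPhigh 2 and with DESeq2. The erythroid markers together gave 677, 123, 37.2 and 454 CPM in neural or neural crest-like cells, and their part was not tested. Over all cells Slc25a37 stood at 22.8, 20.6, 16.9 and 16.8 CPM (−0.33 ± 0.09, adjusted p = 0.0162, not without MMPlow 1). In the equal-class sums its fold change was the lowest of the members called, at 29.8, 24.7, 14.4 and 14.7 CPM (−0.86 ± 0.13, adjusted p = 0.00443). Those sums include erythroid-like cells, whose Slc25a37 difference depended on how they were grouped, and their part was not tested. Slc25a28, mitoferrin 2, the iron carrier of other tissues, was at 28.0, 23.3, 18.9 and 12.2 CPM over all cells and was not called (−0.70 ± 0.23, adjusted p = 0.0530). Its fold change was below 0 in all 9 classes and called in 1, the neural or neural crest-like cells (24.3, 18.8, 13.9 and 7.91 CPM, −0.98 ± 0.30, adjusted p = 0.0414), but not without MMPlow 1, MMPlow 2 or MMPhigh 2.

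The glutathione carriers Slc25a39 and Slc25a40 were called in opposite directions. Slc25a40 was lower over all cells, at 24.7, 26.2, 13.9 and 16.2 CPM (−0.71 ± 0.10, adjusted p = 0.000540), and not called in the equal-class sums (−0.37 ± 0.12, adjusted p = 0.0701). Slc25a39 was higher over all cells, at 48.6, 48.4, 55.9 and 62.1 CPM (0.32 ± 0.08, adjusted p = 0.0122), but not without either MMPlow library, and its direction turned to −0.04 with at least 5000 UMIs and 1500 genes per cell. By class, Slc25a39 was higher in haematopoietic progenitor-like cells (52.6, 45.5, 62.4 and 82.7 CPM, 0.88 ± 0.19, adjusted p = 0.000956, not without MMPhigh 2 or with DESeq2) and macrophage-like cells (38.7, 44.1, 54.7 and 64.3 CPM, 0.79 ± 0.13, adjusted p = 0.00172). The macrophage call was lost with at least 5000 UMIs and 1500 genes per cell (0.32 ± 0.14, adjusted p = 0.129), and in the C1qc cluster the fractions overlapped at 43.2, 56.5, 55.4 and 66.4 CPM (0.27 ± 0.14, adjusted p = 0.231). It was also higher in germ cell-like cells (63.8, 113, 149 and 200 CPM, 1.11 ± 0.33, adjusted p = 0.0355, not without MMPlow 1 or MMPhigh 2, nor with DESeq2). Its fold change was above 0 in 7 of the 9 classes and lowest in erythroid-like cells, at −0.555 and not called.

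Of the 7 carriers of nucleotides and cofactors, 2 were higher and 1 lower over all cells, where 53.7% of all genes were called. Slc25a36 and Slc25a33, carriers of pyrimidine nucleotides, were not called, at 51.8, 57.7, 49.1 and 48.4 CPM and at 7.06, 7.20, 12.6 and 8.12 CPM. Slc25a32, which carries folate and FAD, was lower (19.5, 20.1, 14.5 and 16.2 CPM, −0.33 ± 0.10, adjusted p = 0.0192, not without MMPlow 1, MMPlow 2 or MMPhigh 1). Slc25a17, a cofactor carrier of peroxisomes, was higher at 31.7, 32.3, 38.6 and 42.0 CPM (0.37 ± 0.08, adjusted p = 0.00598, not without MMPlow 1). Slc25a51, a carrier of NAD, was the other called higher, at 31.0, 29.6, 38.9 and 38.0 CPM (0.38 ± 0.08, adjusted p = 0.00502, not without MMPlow 2), and is named after its values were seen. The 5 less characterised members had fold changes from −0.29 for Slc25a43 to 0.27 for Slc25a34, with unadjusted p-values of 0.172 or more.

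**Figure D3:**
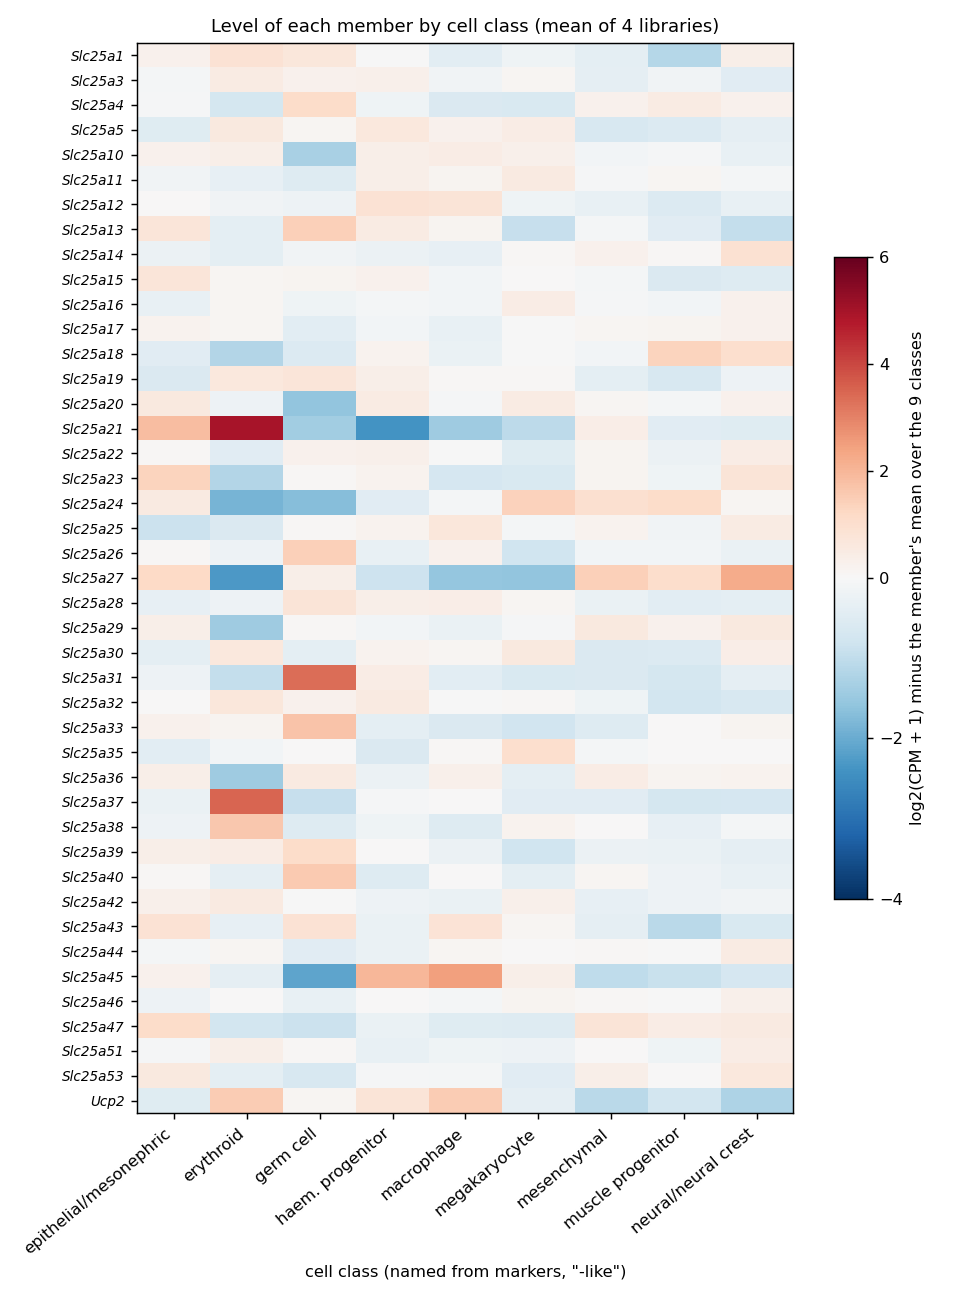
Level of each member with at least 100 UMIs over the 9 classes (rows), by class (columns), as log2(CPM + 1) minus the member's own mean over the classes, averaged over the 4 libraries. The strongest fields are Slc25a21 and Slc25a37 in erythroid-like cells, at means of 784 and 213 CPM, and Slc25a31 in germ cell-like cells, at 18.5 CPM.

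By level, 6 members marked a class in the sense that their CPM there was at least 2 times that of every other named class in at least 3 of the 4 libraries. In erythroid-like cells these were Slc25a21, Slc25a37 and Slc25a38, at means of 784, 213 and 50.8 CPM. In germ cell-like cells they were Slc25a26, the S-adenosylmethionine carrier, at 74.7 CPM, Slc25a33 at 35.7 CPM and Slc25a31 at 18.5 CPM. The classes were drawn from the same cells and genes, so these levels are a description. The unnamed cluster led by Slc25a21 was outside this rule. It held Slc25a21 at 660, 538, 530 and 546 CPM and Slc25a38 at 24.3, 29.2, 47.9 and 36.0 CPM. With that cluster counted, neither of these genes would mark the erythroid-like cells. Slc25a46, Slc25a17 and Slc25a51 were the most even over the 9 classes, with the highest class at 1.53, 1.63 and 1.70 times the lowest.

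**Figure D4:**
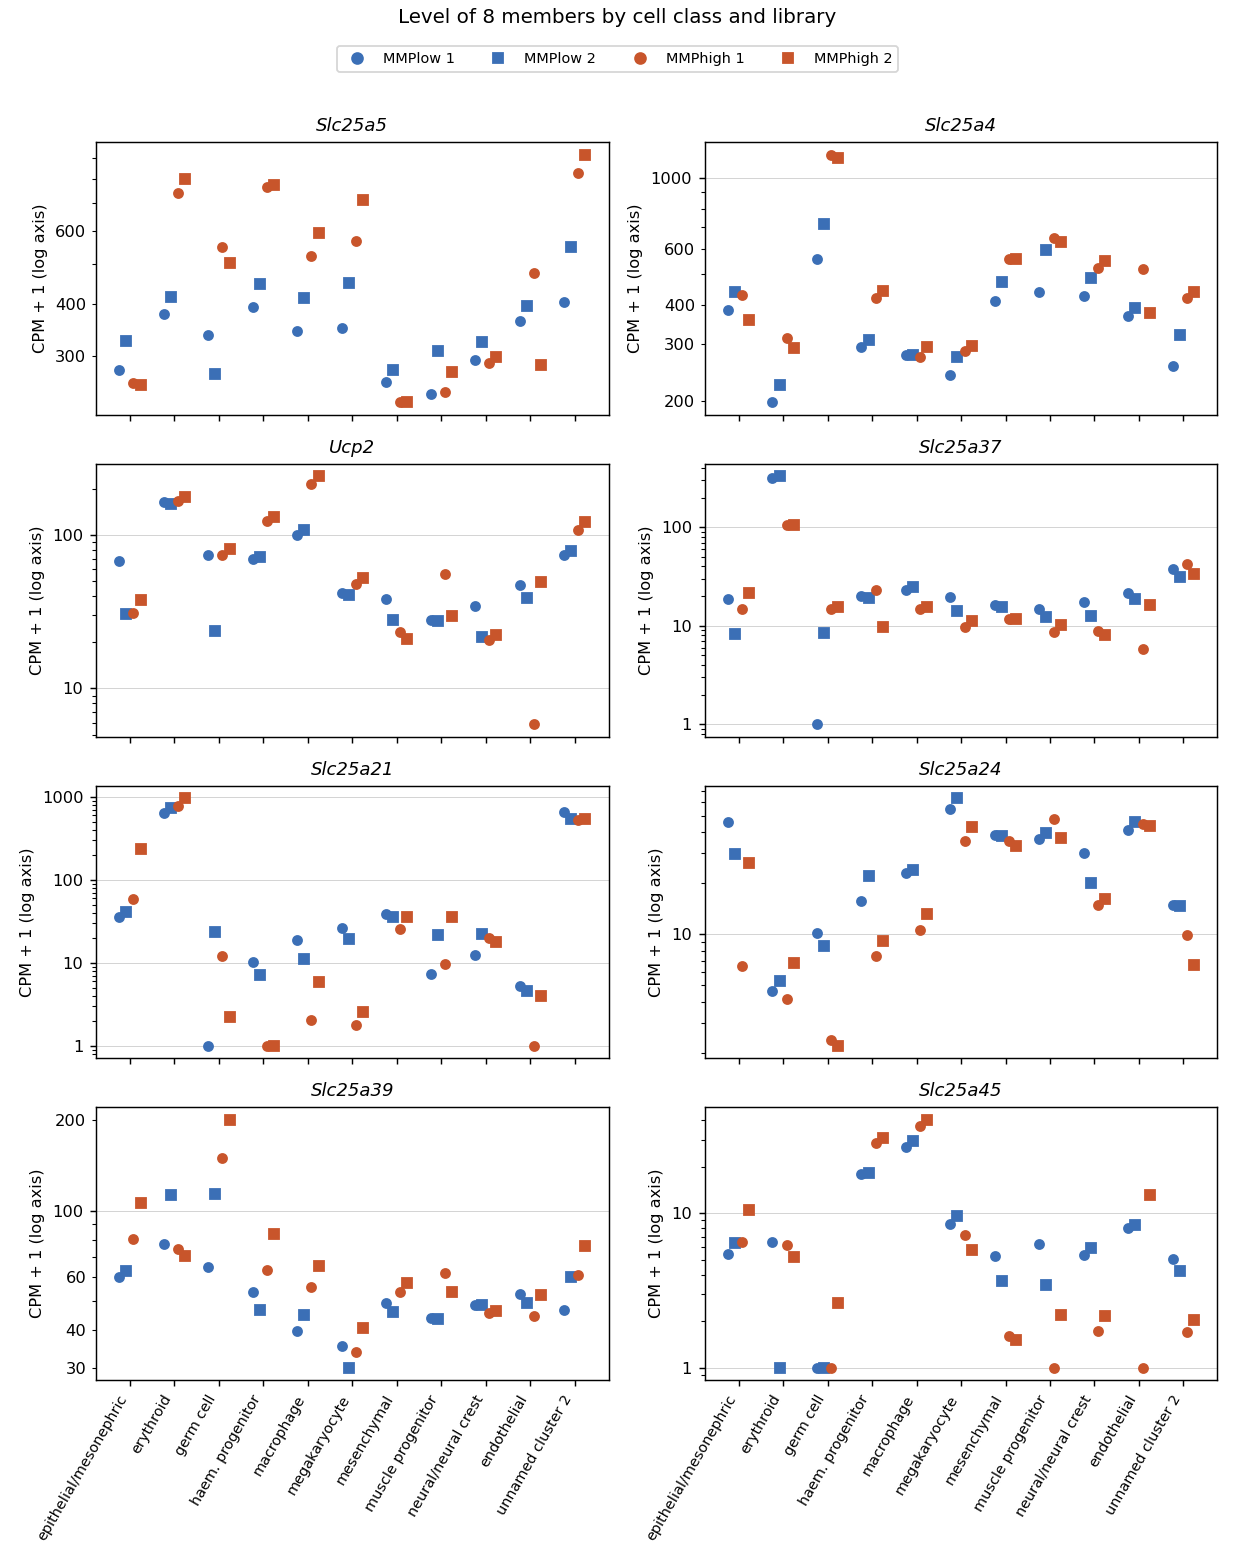
Level of 8 members (CPM + 1, log y axis) by cell class (x axis), with 1 point per library, blue for MMPlow and orange for MMPhigh. Slc25a5 is higher in both MMPhigh libraries in the haematopoietic progenitor-like, erythroid-like, macrophage-like, megakaryocyte-like and germ cell-like cells, Slc25a37 is lower in them in erythroid-like cells, and Slc25a21 is highest in erythroid-like cells and the unnamed cluster.

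Across the 9 classes there were 296 tests of a member within a class, and 40 were called, 27 higher and 13 lower in MMPhigh; 18.5% of all gene tests in these classes were called. These counts, and the 9 members lower over all cells, include the calls named above as passing the filter through 1 fraction alone (Slc25a21, Slc25a23, Slc25a45 and Slc25a54). The calls fell on 20 members, and without MMPlow 1 there were 22 calls. In haematopoietic progenitor-like cells 8 of 37 tested members were called, 7 of them higher, where 28.5% of all genes were called. In macrophage-like cells 11 of 40 were called (background 41.4%) and in neural or neural crest-like cells 9 of 40 (28.1%). Mesenchymal-like cells had 4 of 40 (19.9%), germ cell-like cells 3 of 17 (7.10%), erythroid-like cells 2 of 25 (3.54%), megakaryocyte-like cells 2 of 38 (8.68%) and epithelial or mesonephric-like cells 1 of 29 (6.77%). Muscle progenitor-like cells had 0 of 30 called by edgeR or DESeq2, and 2 at an unadjusted p under 0.05, where 2.58% of all genes were called. There 1 member was called when either MMPhigh library was left out. The unnamed cluster led by Slc25a21, tested as an alternative added after the clusters were seen, had 15 of 40 (32.5%), 13 of them higher, among them Slc25a5 at 403, 549, 828 and 917 CPM (1.17 ± 0.24, adjusted p = 0.00232). Of its 2 lower calls, Slc25a45 passed the filter through MMPlow alone. The members' share was below the background in the haematopoietic progenitor-like, macrophage-like, neural or neural crest-like, mesenchymal-like, megakaryocyte-like, epithelial or mesonephric-like and muscle progenitor-like cells, and above it in the germ cell-like and erythroid-like cells.

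**Figure D5:**
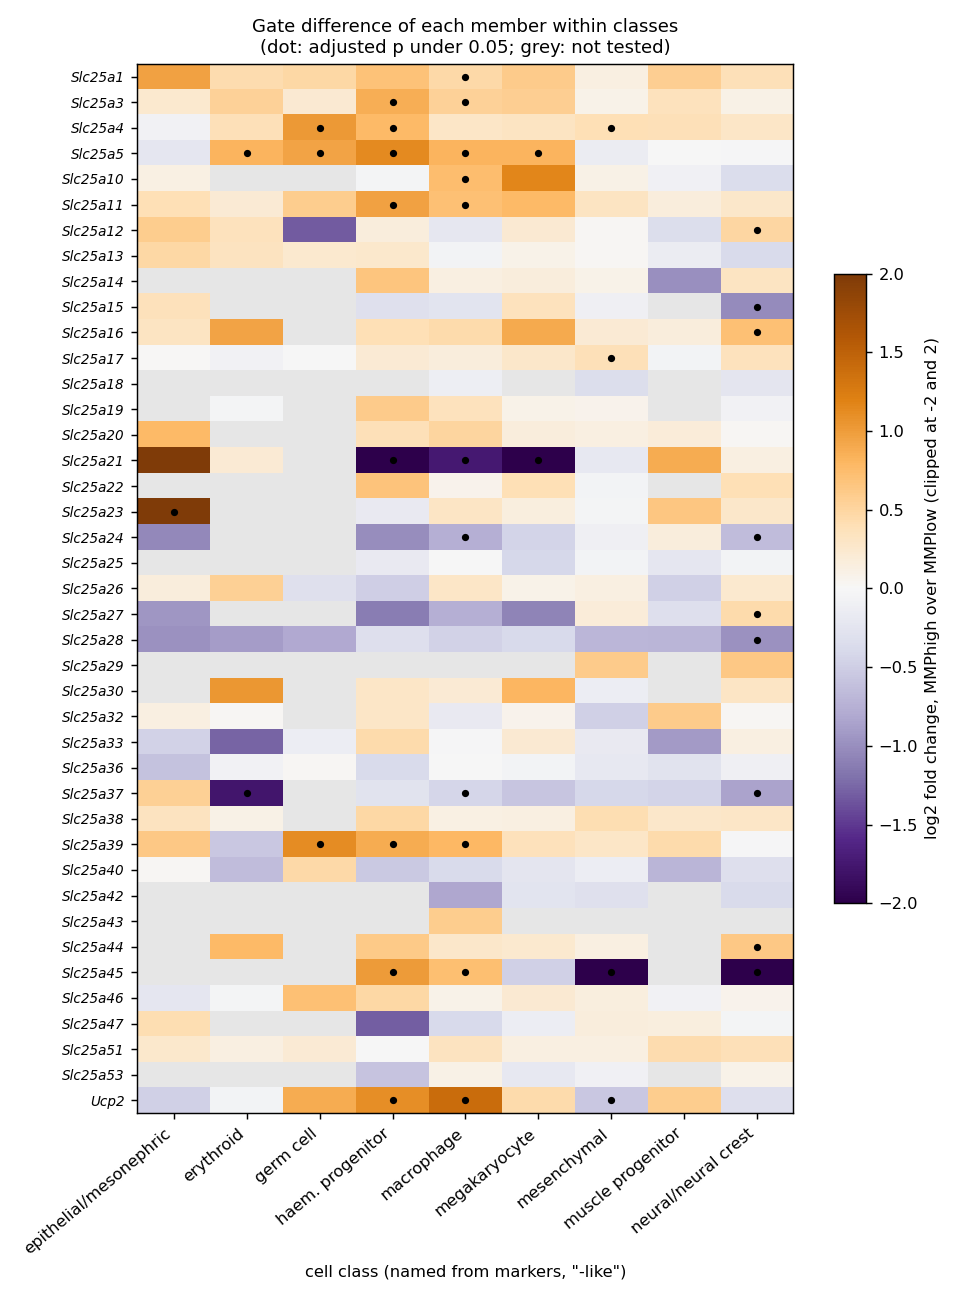
Log2 fold change of MMPhigh over MMPlow (colour, clipped at −2 and 2) for each member (rows) within each of the 9 classes (columns), with a dot at an adjusted p under 0.05 and grey where the member was not tested. The dots are most numerous in macrophage-like (11), neural or neural crest-like (9) and haematopoietic progenitor-like cells (8), and the calls of Slc25a21, Slc25a23 and Slc25a45 include ones that passed the filter through 1 fraction alone.

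In haematopoietic progenitor-like cells, the class nearest to the question of the study, Slc25a5, Ucp2, Slc25a45, Slc25a11, Slc25a39, Slc25a3 and Slc25a4 were the 7 members higher in MMPhigh. Slc25a3 stood at 406, 527, 666 and 759 CPM (0.87 ± 0.16, adjusted p = 0.000195). The cells behind these sums differed in depth and content. There were 452, 567, 45 and 68 of them, with median UMIs of 2911.5, 3656, 9437 and 32716 and median mitochondrial shares of 6.62%, 6.59%, 3.18% and 3.76%. Their 11 progenitor markers together gave 2870, 2800, 1290 and 1490 CPM. Among the cells with at least 5000 UMIs and 1500 genes, 70, 167, 30 and 61 in number, 1 of 30 tested members was called, Slc25a5, and 3.33% of all genes were. It was then at 523, 532, 774 and 773 CPM (0.59 ± 0.14, adjusted p = 0.0184), and Ucp2 at 93.3, 96.4, 124 and 131 CPM (0.47 ± 0.18, adjusted p = 0.199). Both MMPhigh libraries were above both MMPlow libraries for these 2 genes, and the MMPlow values were higher than without the selection. Slc25a3 (0.41, adjusted p = 0.152) and Slc25a4 (0.31, adjusted p = 0.336) were not called in these cells. The same selection left 4 of 39 tested members called in macrophage-like cells (25.1% of all genes), among them Ucp2 at 138, 149, 217 and 241 CPM (0.80 ± 0.11, adjusted p = 0.00395). In the unnamed cluster it left 5 of 37 (11.9%), Slc25a5, Slc25a3, Slc25a4, Slc25a11 and Slc25a38, all higher.

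A dependence of the gate difference on the class was called for 11 of 42 tested members, where it was for 38.0% of all 16172 genes, and for 7 without MMPlow 1 or MMPlow 2. Among the 11, Slc25a12, Slc25a21, Slc25a23, Slc25a27 and Slc25a45 had their lowest or highest fold change in a class where they passed the filter through 1 fraction alone, so their p-values are given as a description in the closing section. Slc25a5 (adjusted p = 1.08e-10), Slc25a4 (5.47e-06), Ucp2 (1.38e-05) and Slc25a37 (3.74e-05) had the smallest adjusted p of the other 6 in this edgeR test of whether the fold changes of the 9 classes are equal. For Ucp2 the fold change ran from −0.55 in mesenchymal-like to 1.40 in macrophage-like cells, and for Slc25a37 from −1.77 in erythroid-like to 0.56 in epithelial or mesonephric-like cells. Slc25a1 (0.13 to 0.96) and Slc25a11 (0.17 to 0.96) were above 0 in all 9 classes, with no call of a dependence on class (adjusted p = 0.713 and 0.160).

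Genes that work beside the carriers were read from a list of 48: the TIM22 import route, outer membrane channels, other inner membrane transporters and shuttle enzymes. Over all cells 17 were higher and 8 lower, with a median fold change of 0.22, where 53.7% of all genes were called. In the equal-class sums 6 of the 48 were higher and 1 lower, with a median of 0.08, where 20% of all genes were called. Of the 12 shuttle enzymes, 4 were higher in the equal-class sums. Got2 of the malate-aspartate shuttle was not called there (−0.03 ± 0.09, adjusted p = 0.831), nor were its carriers Slc25a12 (0.08) and Slc25a13 (−0.10). Mdh1 (0.46 ± 0.12, adjusted p = 0.0311), Mdh2 (0.30 ± 0.08, adjusted p = 0.0408) and Got1 (0.42 ± 0.13, adjusted p = 0.0495), which work with Slc25a11 in the same shuttle, were higher. So were Acly, which uses the citrate that Slc25a1 exports (0.29 ± 0.08, adjusted p = 0.0458), and Mpc1, a subunit of the mitochondrial pyruvate carrier (0.43 ± 0.11, adjusted p = 0.0317). The remaining gene called higher was Vdac3, an outer membrane channel (0.30 ± 0.08, adjusted p = 0.0419). Tomm70a, the outer membrane receptor for carrier precursors, was lower (−0.40 ± 0.09, adjusted p = 0.0206). In haematopoietic progenitor-like cells 22 of 41 tested partners were higher and 2 lower, where 28.5% of all genes were called. Both MMPhigh libraries were deeper than both MMPlow libraries in this class, and the part of depth in the partner counts was not tested. Among the deeper cells of this class selected above, 3.33% of all genes were called, and partner counts are not given for them. Over all retained cells of that class, 9 of 12 genes of the import route were higher, among them Timm10 (0.69) and Timm13 (0.71), chaperones that guide carriers across the space between the membranes. The 2 lower were Agk, a subunit of the translocase (−0.78), and Mcu, the calcium uniporter (−0.90).

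Members also differed by the length of their genes. Of the 30 tested members whose gene spans under 30 kb, 15 were higher and 3 lower over all cells, with a median fold change of 0.36. Of the 16 with longer genes, 3 were higher and 6 lower, with a median of −0.12. Of all 12488 tested genes under 30 kb, 3447 were higher and 2907 lower, with a median of 0.06, and of the 8010 longer ones 2123 were higher and 2530 lower, with a median of −0.06. In the equal-class sums the members' medians were 0.22 and −0.04, and all 4 members higher had short genes while both lower had long ones. Of all genes there, 842 were higher and 1026 lower of 9861 short ones, and 750 were higher and 798 lower of 7191 long ones. Whether reads in introns were counted is not given in the sources used here, and its part in this pattern was not tested.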

How the data were processed

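Single-cell libraries of mouse CD31+ AGM cells (2 MMPlow, 2 MMPhigh) were analysed from the UMI counts per gene and barcode that the authors deposited as whole numbers. The headers of the deposited count files name Cell Ranger 7.0.1, while the submitters' processing notes name Cell Ranger 2.1.1 and the mm10 build. Whether intron reads were counted is not given in the sources used here. Deposited totals were 120168395, 102083810, 51800709 and 112739406 UMIs over 59928, 23715, 13939 and 4288 barcodes, in the order MMPlow 1, MMPlow 2, MMPhigh 1, MMPhigh 2. The number of UMIs limits the precision of low members, and intervals cover counting error only.

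Barcodes with at least 2000 UMIs, at least 1000 genes and under 25% mitochondrial UMIs were kept. Scrublet then removed 2, 996, 0 and 68 cells as doublets; at 2 of 16700 and 0 of 4403 cells it had not worked in MMPlow 1 and made no call in MMPhigh 1, so alternatives removed none or the top 6% of scores. Cells were clustered with scanpy 1.11.5 (2000 variable genes, 30 components, 15 neighbours, Leiden resolution 1) and clusters were named from 12 marker lists, with score limits set after the clusters were seen. Raw counts were summed per library over all retained cells, over equal cells of each of the 9 classes, and within each class with at least 20 cells in every library. The main test was the quasi-likelihood test of edgeR 4.0.16 (R 4.3.3, TMM, filterByExpr) without a block, with Benjamini-Hochberg adjustment over all genes tested, and DESeq2 1.42.0 was an alternative. The test was also run on simulated counts of the all-cell, equal-class and haematopoietic progenitor-like sums. It recovered 43%, 45% and 45% of the 100 genes changed by a log2 fold of 1. At a log2 fold of 2 it recovered 99%, 99% and 95%, with 2, 9 and 7 false calls among unchanged genes. The spread between simulated libraries was set the same for all genes and not fitted to these data. These rates therefore do not give the power of the test here.

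Gene positions are from GENCODE vM21 (GRCm38). The members and lists were chosen with earlier results of these data known. Named genes were a fixed list of carriers of main substrates with Ucp1, Ucp2 and Ucp3, the 8 with the largest fold in each direction among those called in the all-cell and equal-class sums, up to 3 per class and direction among those called in a class, and those at least 2 times higher in a class than in every other class in at least 3 libraries with 20 UMIs or more.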

Additional observations from a re-analysis of the deposited data

Results flagged for a closer look

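For 11 members a dependence of the difference between the fractions on the class was called by edgeR's quasi-likelihood test of the equality of the class fold changes, adjusted over all genes tested. The adjusted p was 1.08e-10 for Slc25a5 (called higher in 5 classes), 4.43e-06 for Slc25a45, 5.47e-06 for Slc25a4 and 1.38e-05 for Ucp2. It was 3.74e-05 for Slc25a37, 0.000183 for Slc25a27, 0.000228 for Slc25a39 and 0.00259 for Slc25a3. It was 0.00843 for Slc25a21, 0.0261 for Slc25a12 and 0.0338 for Slc25a23. Of all genes, 38.0% passed this test. The values of Slc25a12, Slc25a21, Slc25a23, Slc25a27 and Slc25a45 are a description and support nothing, since their lowest or highest class fold changes came from classes where they passed the count filter through 1 fraction alone. These classes were germ cell-like cells for Slc25a12, haematopoietic progenitor-like and megakaryocyte-like cells for Slc25a21 and Slc25a27, epithelial or mesonephric-like cells for Slc25a23, and mesenchymal-like and neural or neural crest-like cells for Slc25a45.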

How the results depend on the processing

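The count of members called over all cells (27) ranged from 13 to 27 when 1 library was left out, and the equal-class count (6) from 2 to 8. The equal-class count was 10 with no count filter, and 3 with cells thinned to 2000 UMIs, with at least 50 cells per class or with the C1qc cluster as the only macrophage-like cells. The 40 calls over the classes ranged from 22 to 47 with 1 library left out. They were 25 with DESeq2, 20 with thinned cells, 26 with at least 50 cells per class and 15 with at least 5000 UMIs and 1500 genes per cell, or 20 when the unnamed cluster led by Slc25a21 was added to that selection. The share of all genes called fell under that selection too. It went from 28.5% to 3.33% in haematopoietic progenitor-like and from 41.4% to 25.1% in macrophage-like cells. The 11 members whose difference depended on class ranged from 7 to 13 with 1 library left out, and were 7 at resolution 2 and with at least 50 cells per class. The family's share difference (0.0432 percentage points) was 0.0252 with at least 5000 UMIs and 1500 genes per cell, and 0.0351 to 0.0513 with 1 library left out. In 2 results the direction turned: Slc25a39 over all cells to −0.0395 with at least 5000 UMIs and 1500 genes, and Slc25a37 in erythroid-like cells to 0.0407 at resolution 0.5. The cause of these changes was not tested, except that fewer libraries, cells or classes entered several of them. Library numbers pair nothing by the labels, and deviations of same-numbered libraries correlated at 0.0494 over 10414 genes. With the replicate number as a block, the 4 counts were 29, 6, 49 and 10. Without the cells whose barcode is shared between libraries these counts were 27, 7, 37 and 11. The settings with the C1qc cluster or the unnamed cluster were chosen after seeing the data. The fewest members passed the filter on low counts in germ cell-like (17) and erythroid-like cells (25).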
